A study of Mus musculus with 12 samples.

Results

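Stx1a and 6 partners in synaptic vesicle fusion (Snap25, Vamp1, Vamp2, Syt1, Cplx1 and Cplx2) were followed in the cortex of 12 mice. They were taken by gene symbol, and all 7 were among the 17202 genes of the table and among the 17111 genes tested. The mice formed 4 groups of 3: wild-type mice on vehicle (VEH-WT) or co-treated (VERCUR-WT), and CD mice on vehicle (VEH-CD) or co-treated (VERCUR-CD). CD mice model Williams-Beuren syndrome. They are heterozygous for a deletion that runs from Gtf2i to Fkbp6 on chromosome 5 and takes away 1 copy of Stx1a. VERCUR is curcumin, a phenol of turmeric, given together with verapamil, a blocker of calcium channels, in the drinking water. By the labels, curcumin was given at 60 mg/kg/day and verapamil at 10 mg/kg/day, starting at 8 weeks of age and lasting 1 month, and the tissue was taken at 16 weeks. The text of the study gives a lower dose of verapamil. It also has treatment kept up until the mice were killed, at an earlier age than the labels give. The labels call the controls untreated, while the study gave them the vehicle of the drugs. The labels give the strain as C57Bl6. The study's methods describe male mice, kept on a mostly C57BL/6J background, whose line had been crossed with a Thy1-YFP reporter, a transgene that labels pyramidal neurons, in all groups.

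When a synaptic vesicle fuses with the presynaptic membrane, syntaxin-1 and SNAP-25 on the plasma membrane zip together with a synaptobrevin (VAMP) on the vesicle, and the bundle they form is the SNARE complex. Synaptotagmin-1 on the vesicle senses calcium and triggers fusion, and complexins clamp and then help the assembled complex. In the forebrain, some of these genes are close relatives that can be used beside or instead of each other, such as Vamp1 and Vamp2, or Cplx1 and Cplx2. Stx1a is the only one of the 7 that lies in the deleted region. Cplx1 is also on chromosome 5, on the minus strand at 108518554 to 108550024, 26.5 Mb away from Stx1a and outside the deletion.

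Values are normalized counts, that is, reads of a gene divided by 1 factor per mouse. From 40290000 to 56480000 reads were counted per mouse. The 7 genes were covered by 4805 (Vamp1) to 201335 (Snap25) reads in a mouse. Counting error was therefore at most 1.44% of a value, while the CV between mice of 1 group ran from 0.765% (Snap25) to 13.1% (Syt1), so the spread between mice, and not depth, set the precision. Values of mice of the same group had correlations over all genes from 0.986 to 0.994. Markers of cortical glutamatergic neurons were detected in every mouse, with summed levels from 242700 to 294900. Markers of striatal neurons stood apart within every group, with a summed level from 9699 to 42480, and were highest in replicate 3 of both wild-type groups and in replicate 1 of both CD groups. In such tissue, fewer cells of a type and less RNA per cell cannot be told apart.

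Stx1a, the plasma membrane syntaxin of the complex, was lower in every CD mouse. It lies on the plus strand of chromosome 5 at 135023482 to 135051100 (GRCm38, GENCODE M21 annotation). Its normalized counts were 18596, 18257 and 17106 in the 3 VEH-WT mice and 9502, 9165 and 9587 in the 3 VEH-CD mice. They were 17363, 20539 and 17375 in VERCUR-WT and 8873, 8417 and 9946 in VERCUR-CD. The highest CD mouse lay far below the lowest wild-type mouse, and the values of VEH-CD and VERCUR-CD overlapped. The mean was 17986 ± 781 in VEH-WT against 9418 ± 223 in VEH-CD, and 18426 ± 1830 in VERCUR-WT against 9079 ± 785 in VERCUR-CD (SD, n = 3 each).

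**Figure D1:**
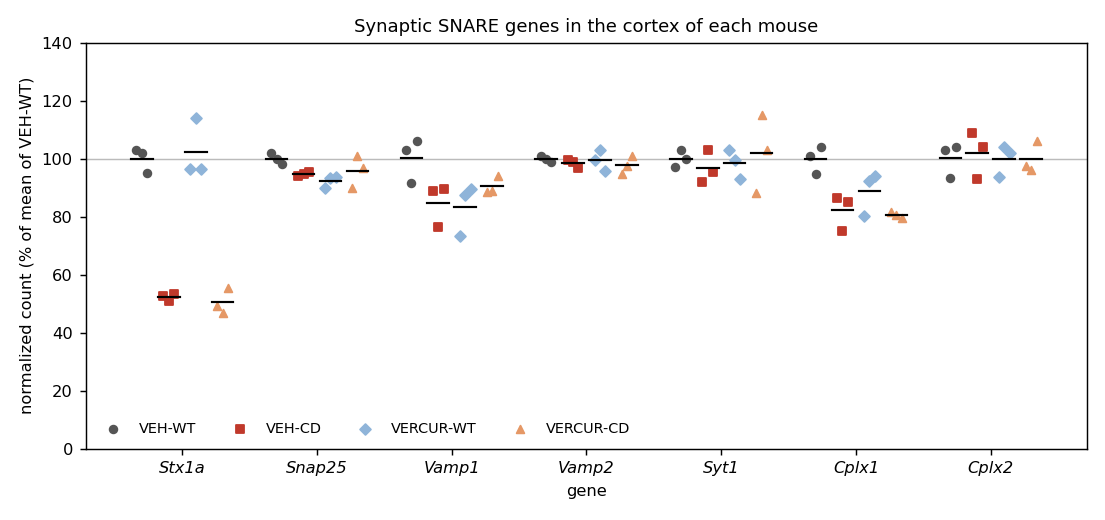
Normalized counts of the 7 SNARE genes in each mouse, as a percent of the mean of the 3 VEH-WT mice; each point is 1 mouse and each black line a group mean. The CD mice sit between 46.8% and 55.3% for Stx1a, while for Snap25, Vamp2, Syt1 and Cplx2 the 4 groups lie around the same level.

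The groups were compared with limma, a linear model fitted gene by gene to log2(normalized count + 1), with Benjamini-Hochberg adjustment over all genes tested. A gene was called changed when the adjusted p was under 0.05 and its level was more than 25% higher or more than 25% lower. Stx1a was called in VEH-CD against VEH-WT, with a log2 fold change of -0.93 (95% interval -1.10 to -0.77, limma adjusted p = 4.6e-05), or 52.4% of the wild-type level. It was called again in VERCUR-CD against VERCUR-WT, at -1.02 (-1.19 to -0.85, limma adjusted p = 1.47e-05), or 49.3%. Over both treatments, with 6 CD and 6 wild-type mice, the difference was -0.98 (-1.09 to -0.86, limma adjusted p = 4.37e-07), and the level was 50.8% of wild type (46.8% to 55.1%). All 3 intervals on the log2 scale hold -1.

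Stx1a was the only one of the 7 genes called in each of these 3 comparisons. Over all 17111 genes tested, the call was made for 44 genes (0.257%, with 0.205% lower) in VEH-CD against VEH-WT, for 25 (0.146%, with 0.123% lower) in VERCUR-CD against VERCUR-WT and for 55 (0.321%, with 0.234% lower) over both treatments. Without overlap between the 3 and 3 mice, 4 of the 7 genes (Stx1a, Snap25, Vamp1 and Cplx1) were lower in VEH-CD than in VEH-WT, beside 11.4% of all genes. Between the 6 CD and the 6 wild-type mice this held for Stx1a alone, beside 0.473% of all genes. The median log2 fold change of the 7 genes was -0.02 over both treatments, beside a median over all genes of -0.0022.

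Stx1a was not called between co-treated and vehicle-treated mice of either genotype. VERCUR-WT was at 102% of VEH-WT (95% interval 91.1% to 115%, log2 fold change 0.03, limma adjusted p = 0.999). VERCUR-CD was at 96.2% of VEH-CD (85.7% to 108%, log2 fold change -0.06, limma adjusted p = 0.894). The genotype difference was not shown to change with treatment, since the interaction was -0.09 on the log2 scale (-0.32 to 0.15, limma adjusted p = 0.857).

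**Figure D2:**
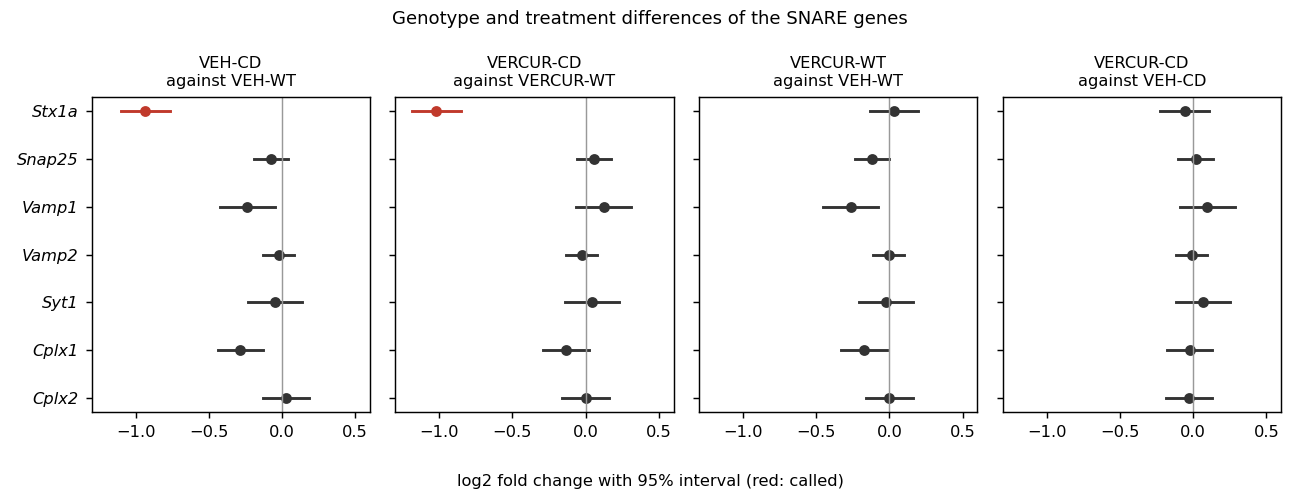
Log2 fold changes (points) with 95% intervals (lines) of the 7 genes in the 4 comparisons of a pair of groups, from limma on log2(normalized count + 1). Stx1a, in red because it was called, is at -0.93 and -1.02 in the 2 genotype comparisons, and no gene was called in the 2 treatment comparisons.

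The 250 bases before the start of Stx1a in RefSeq (GRCm38.p6, chr5:135023232-135023481, plus strand) are shown because this gene carries the main difference, and its remaining copy keeps this stretch. The capitals mark the letters GGGCGG of a GC box, to which Sp1 factors bind, and the letters TGACG of a CRE half-site, to which CREB and its relatives bind.
Stx1a: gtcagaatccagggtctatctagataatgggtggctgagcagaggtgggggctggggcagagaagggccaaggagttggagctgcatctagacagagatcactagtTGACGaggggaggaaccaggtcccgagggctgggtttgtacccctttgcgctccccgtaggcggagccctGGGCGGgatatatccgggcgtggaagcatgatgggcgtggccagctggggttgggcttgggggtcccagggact
The stretch held 62.0% G and C, more than 76.7% of 32851 promoters of the same length. GGGCGG, searched on both strands, was found in 32.7% of those promoters and TGACG in 17.8%, and neither match in Stx1a overlapped the other. The letters TATAAA of a TATA box, found in 12.4% of promoters, had no match here. Nor had the E-box CACGTG, found in 6.02%. A match says only that these letters are there.

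Among the 19 genes listed for the deleted region, all of them measured, Stx1a was in the middle. All 19 were called lower in CD over both treatments, with log2 fold changes from -1.36 (Fzd9) to -0.69 (Lat2) and a median of -0.98. Stx1a ranked 12 from the lowest, between Mettl27 at -0.98 and Bcl7b at -0.97. Its nearest measured neighbours were lower by about as much. Abhd11 (135009152 to 135012175, plus strand), which encodes a mitochondrial hydrolase, had a log2 fold change of -1.03 (-1.19 to -0.87). On the other side, Bud23 (135052957 to 135064959, minus strand), a methyltransferase of ribosomal RNA, was at -1.06 (-1.18 to -0.94), and Dnajc30 (135064202 to 135065862, plus strand), a mitochondrial chaperone, was at -0.95 (-1.07 to -0.83). The noncoding Abhd11os (135012114 to 135013253, minus strand) also lies in the deletion but is not among the 19. With at most 109 normalized counts in a mouse, it was not called, at -1.13 (-2.01 to -0.25, limma adjusted p = 0.374). Its CD and wild-type mice overlapped. Abhd11 overlaps Abhd11os and Bud23 overlaps Dnajc30 on opposite strands, and the counting was not stated to use strand, so the reads of each pair are uncertain.

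**Figure D3:**
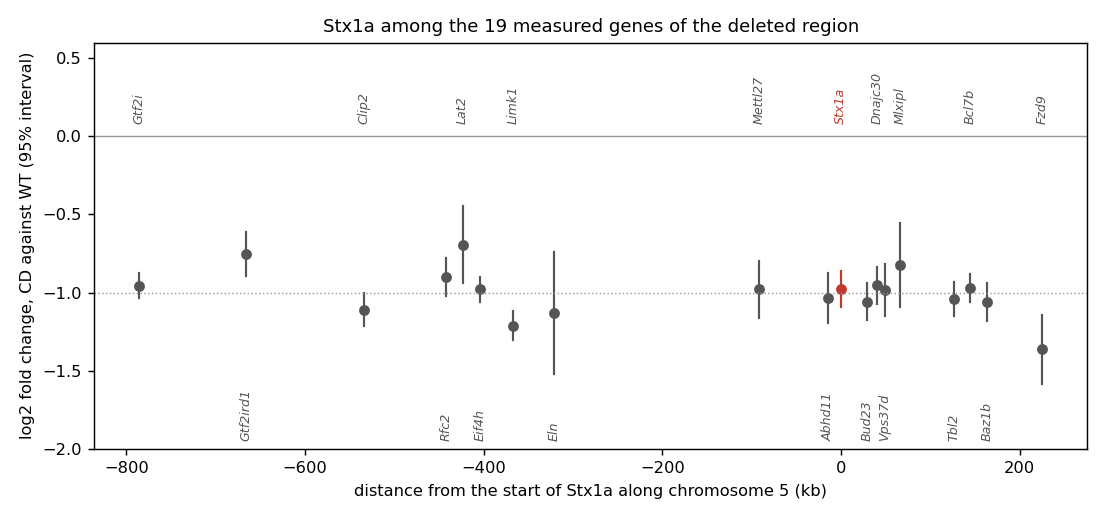
Log2 fold change of CD against WT over both treatments (points, with 95% intervals) for the 19 listed genes of the deleted region, against the distance of each gene's lower coordinate from that of Stx1a in kb. Stx1a (red) is at -0.98, near the dotted line at -1, and all 19 genes lie below 0.

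The genes whose levels were nearest to those of Stx1a over the 12 mice were from the same region. Likeness was the root mean square difference of log2 levels relative to VEH-WT. A gene lowered in CD mice by as much as Stx1a is near by this measure. It therefore does not show that genes follow Stx1a from mouse to mouse. The 5 nearest of 17110 genes were Eif4h (0.058), a helper of the translation initiation helicase, Abhd11 (0.096), Rfc2 (0.098), a subunit of the clamp loader of DNA replication, Dnajc30 (0.098) and Gtf2i (0.101), a transcription factor. The first gene from outside the region came at rank 16, and Eln (rank 20), Fzd9 (rank 23) and Lat2 (rank 25) of the region came after it.

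Levels of different genes are compared only per length, as normalized counts per kb of annotated exons, which understates genes with many alternative exons. Per kb, the order of the levels over the 12 mice was Snap25 (25120 normalized counts per kb), Cplx2 (21060), Vamp2 (17180), Cplx1 (14550), Syt1 (9298), Stx1a (5149) and Vamp1 (685). The ranges over mice overlapped between Vamp2 and Cplx1, and not between other neighbours in this order. All but Vamp1 stood above at least 98.0% of the genes of the table, and Vamp1 above 80.4%. In CD mice Stx1a was at 3532 ± 83.7 (VEH-CD) and 3405 ± 294 (VERCUR-CD) per kb (SD, n = 3), which left its place in the order as it was.

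Snap25, the other plasma membrane SNARE, was not called in any comparison. Normalized counts of Snap25 were 181046, 178619 and 174980 in VEH-WT, 167300, 169155 and 169785 in VEH-CD, 160219, 166178 and 166994 in VERCUR-WT, and 160037, 179896 and 172752 in VERCUR-CD. VEH-WT lay above VEH-CD and VERCUR-WT without overlap, by a small step. The log2 fold change was -0.08 in VEH-CD against VEH-WT (95% interval -0.19 to 0.04, limma adjusted p = 0.589) and -0.12 in VERCUR-WT against VEH-WT (-0.23 to 0.0003, limma adjusted p = 0.944). Its sign in co-treated mice depended on scaling: VERCUR-CD against VERCUR-WT was 0.05 as deposited and -0.11 after quantile normalization.

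Vamp2, the main synaptobrevin of forebrain synapses, was the steadiest of the 7. It ranged from 62660 to 68328 normalized counts over all 12 mice, and the 4 groups overlapped. The log2 fold change of CD against WT over both treatments was -0.02 (95% interval -0.10 to 0.05). Syt1, the calcium sensor of fast release, ranged from 68757 to 89531, with both ends in VERCUR-CD. Its log2 fold change over both treatments was -0.0020 (-0.13 to 0.13). Cplx2, the complexin with the higher level here, ranged from 96167 to 112462 with overlapping groups, and its log2 fold change over both treatments was 0.01 (-0.10 to 0.12). For these 3 genes, no comparison had an unadjusted p under 0.05.

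Cplx1 and Vamp1 were highest in VEH-WT, and neither was called. Cplx1 encodes the complexin known best from fast-firing and inhibitory neurons. Normalized counts of Cplx1 were 36567, 34375 and 37748 in VEH-WT and 31265, 27241 and 30784 in VEH-CD. They were 29024, 33428 and 34041 in VERCUR-WT and 29571, 29243 and 28825 in VERCUR-CD. The lowest VEH-WT mouse, at 34375, lay just above the highest other mouse, at 34041 in VERCUR-WT. The share of all genes with such a split was not counted. The 6 CD mice overlapped with VERCUR-WT 1 alone among the wild-type mice. The log2 fold change was -0.29 in VEH-CD against VEH-WT (95% interval -0.44 to -0.13, unadjusted p = 0.00167, limma adjusted p = 0.158) and -0.14 in VERCUR-CD against VERCUR-WT (-0.29 to 0.02, limma adjusted p = 1.0). Over both treatments it was -0.21 (-0.32 to -0.10, unadjusted p = 0.00122, limma adjusted p = 0.17), which missed the threshold.

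The balance of the 2 complexins passed a test of its own, which was adjusted over 4 tests and not over all genes. Over both treatments Cplx1 was at -0.21 and Cplx2 at 0.01, so this test largely restated the lower level of Cplx1. It is not separate support. The log2 ratio of Cplx1 to Cplx2 within a mouse, which does not depend on how samples were scaled, was from -1.54 to -1.49 in VEH-WT and from -1.85 to -1.80 in VEH-CD. It was from -1.74 to -1.63 in VERCUR-WT and from -1.93 to -1.77 in VERCUR-CD, so the 6 CD mice lay below the 6 wild-type mice without overlap. The difference of CD against WT was -0.22 on the log2 scale (exact permutation test, two-sided, p = 0.005, the smallest the 400 arrangements allow, adjusted p = 0.02 over 4 tests). Leaving out each mouse in turn gave -0.24 to -0.20, with adjusted p from 0.02 to 0.06. The adjusted p was over 0.05 only without VERCUR-WT 3, at a difference of -0.21 (exact permutation test, adjusted p = 0.06). The difference for treatment was -0.09 (exact permutation test, p = 0.07, adjusted p = 0.14). Per kb, Cplx1 made up 44.1% ± 0.447 of the 2 complexins in VEH-WT, 38.9% ± 0.379 in VEH-CD, 41.2% ± 0.863 in VERCUR-WT and 38.9% ± 1.52 in VERCUR-CD (SD, n = 3).

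Vamp1 is the synaptobrevin used mostly in spinal cord, brainstem and some fast-spiking neurons, and in cortex it was the lowest of the 7. Its normalized counts were 7987, 7116 and 8199 in VEH-WT and 6886, 5937 and 6948 in VEH-CD. They were 5703, 6804 and 6942 in VERCUR-WT and 6867, 6911 and 7309 in VERCUR-CD. VEH-WT lay above VEH-CD and above VERCUR-WT, while VERCUR-CD overlapped with every other group. The log2 fold change was -0.24 in VEH-CD against VEH-WT (95% interval -0.43 to -0.05, limma adjusted p = 0.313) and 0.12 in VERCUR-CD against VERCUR-WT (-0.07 to 0.31, limma adjusted p = 1.0). Vamp1 made up between 3.56% (VERCUR-WT) and 4.22% (VEH-WT) of the 2 synaptobrevins per kb in the group means, and the log2 ratio of Vamp1 to Vamp2 differed between genotypes by -0.03 (exact permutation test, p = 0.71).

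In treatment comparisons none of the 7 genes was called by limma, and none of the 17111 genes was (0.0%). In VERCUR-WT against VEH-WT, 2 of the 7 had an unadjusted p under 0.05, beside 5.22% of all genes. They were Vamp1 at -0.26 on the log2 scale (95% interval -0.45 to -0.07, limma adjusted p = 0.944) and Cplx1 at -0.17 (-0.33 to -0.02, limma adjusted p = 0.944). In 3 of the 7 (Snap25, Vamp1 and Cplx1) the VERCUR-WT mice lay below the VEH-WT mice without overlap, beside 5.25% of all genes. An unadjusted p under 0.05 was found for 0 of the 7 in VERCUR-CD against VEH-CD, beside 3.54% of all genes, and for 0 of the 7 over both genotypes, beside 2.96%. For the interaction, 1 of the 7 had such a p, beside 6.05% of all genes, and it was Vamp1. No other tool was run on these comparisons.

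Cplx1 and Vamp1 are shown with the stretches before their RefSeq starts because both were highest in VEH-WT. The capitals again mark a GC box, which reads CCGCCC where it is on the opposite strand. Cplx1 is read from chr5:108550028-108550277 on the minus strand and Vamp1 from chr6:125215331-125215580 on the plus strand (GRCm38.p6).
Cplx1: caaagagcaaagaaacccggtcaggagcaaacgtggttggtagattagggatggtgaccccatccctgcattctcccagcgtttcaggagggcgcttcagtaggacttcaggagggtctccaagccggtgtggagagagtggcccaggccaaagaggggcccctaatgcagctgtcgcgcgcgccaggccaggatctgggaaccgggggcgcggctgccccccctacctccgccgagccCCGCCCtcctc
Vamp1: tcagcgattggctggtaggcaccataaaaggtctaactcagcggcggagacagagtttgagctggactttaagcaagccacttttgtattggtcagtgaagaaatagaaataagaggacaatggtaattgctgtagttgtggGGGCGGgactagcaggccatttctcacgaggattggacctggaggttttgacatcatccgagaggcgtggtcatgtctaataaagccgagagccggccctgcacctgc
Each held 1 GC box, on opposite strands, and no match to the other letters searched. The stretch of Cplx1 held 64.8% G and C and that of Vamp1 50.4%, with a median over all promoters of 52.4%. RefSeq starts were given for 5 of the 7 genes. A GC box is in 32.7% of all promoters, so that both hold it is not particular to them.

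Genes of parvalbumin interneurons, fast-spiking inhibitory neurons of cortex, were mostly highest in VEH-WT too. The group mean was highest in VEH-WT for 5 of the 7 markers. The exceptions were Tac1, a neuropeptide gene whose mean in VEH-CD was 101% of VEH-WT, and Kcnc2, a fast potassium channel whose mean in VERCUR-CD was 101%. Of the 7 markers listed (Pvalb, Tac1, Kcnc1, Kcnc2, Kcnab3, Lhx6 and Syt2), none was called, 7 of 7 had a negative log2 fold change in VEH-CD against VEH-WT, and the median was -0.26 beside -0.0028 for all genes. Their summed level was from 27960 to 30570 in VEH-WT, from 23330 to 25850 in VEH-CD, from 22680 to 26130 in VERCUR-WT and from 24790 to 26350 in VERCUR-CD. Among them Syt2, the calcium sensor of fast inhibitory terminals, was at 72.8% of VEH-WT in VEH-CD, 70.9% in VERCUR-WT and 78.9% in VERCUR-CD. Kcnab3, a subunit of potassium channels, had log2 fold changes of -0.40 in VEH-CD and -0.71 in VERCUR-WT against VEH-WT, and Pvalb itself -0.26 and -0.23. Immediate early genes, which neurons switch on with activity, also had higher levels in VEH-WT. By their log2 fold change, all 10 were lower than in VEH-WT both in VEH-CD (median -1.21) and in VERCUR-WT (median -0.79). In VERCUR-CD against VERCUR-WT, 5 were higher and 5 lower, and none was called in these 3 comparisons. Their summed level was from 57880 to 98910 in VEH-WT and from 17090 to 39140 in VEH-CD. It was from 29880 to 55120 in VERCUR-WT and from 29810 to 49760 in VERCUR-CD. Other lists had values on the same side, with none of their genes called. The GABAergic interneuron markers, which share Pvalb and Lhx6 with the parvalbumin list, were 10 of 10 lower in VEH-CD than in VEH-WT. Their median log2 fold change was -0.20, beside -0.0028 for all genes. The 8 oligodendrocyte markers were 8 of 8 lower in VEH-CD (median -0.21) and in VERCUR-WT (median -0.49) than in VEH-WT. The 7 striatal markers were 7 of 7 lower in VERCUR-WT (median -0.56), and 3 of 7 lower in VEH-CD (median 0.05). The cortical glutamatergic markers were 6 of 10 lower in both (medians -0.03 and -0.0063). The part of any of these lists in the values of Cplx1 and Vamp1 was not tested. Without the 4 mice with the highest striatal marker level, a setting chosen after seeing the data, Cplx1 was at -0.29 and Vamp1 at -0.23 in VEH-CD against VEH-WT.

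**Figure D4:**
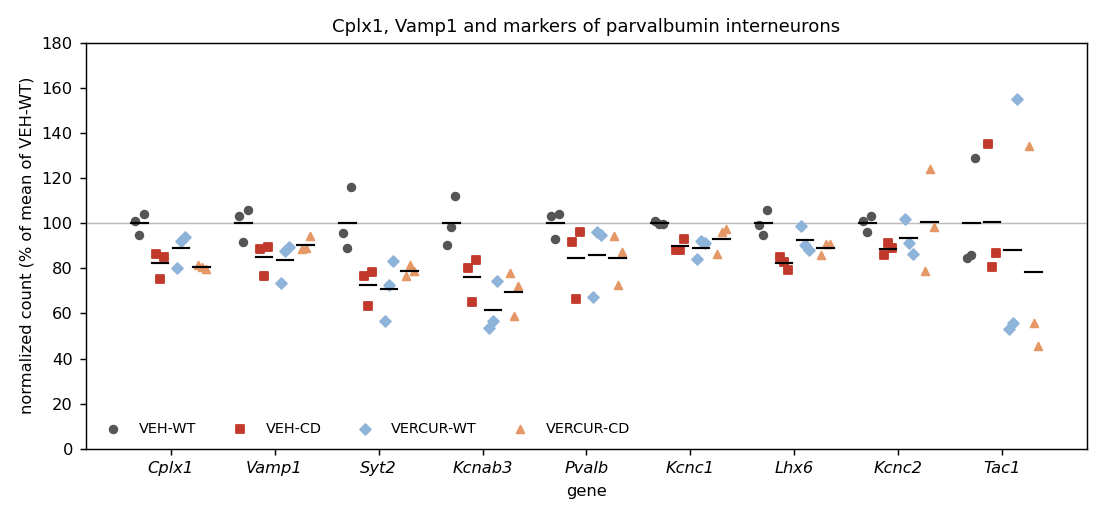
Normalized counts of Cplx1, Vamp1 and the 7 markers of parvalbumin interneurons in each mouse, as a percent of the mean of VEH-WT; each point is 1 mouse and each black line a group mean. The mean of VEH-WT is the highest of the 4 group means for all genes shown except Kcnc2 and Tac1, and for Syt2 the other means are 72.8%, 70.9% and 78.9%.

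The rest of the release machinery was described with 8 lists of 134 genes, of which 133 were tested. None was called by limma in any of the 7 comparisons. In VEH-CD against VEH-WT, 13 of the 133 had an unadjusted p under 0.05 (9.77%, beside 11.8% of all genes tested), and the median log2 fold change was -0.02. In VERCUR-CD against VERCUR-WT there were 3 such genes (2.26%, beside 4.1%), and over both treatments 11 (8.27%, beside 9.64%). By this share, the lists together stood near the background. In VEH-CD against VEH-WT, 23 of the 133 lay below VEH-WT without overlap, beside 11.4% of all genes. Another 10 lay above it, for which the share of all genes was not counted. The log2 fold change there was negative for 80 and positive for 53.

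Of the 29 other plasma membrane and endosomal SNAREs, none was called, and the median log2 fold change over both treatments was 0.01. Vamp8, an endosomal and secretory synaptobrevin relative, was the highest at 0.20 (95% interval -0.05 to 0.45), and Snap29, a relative of SNAP-25 that acts in autophagy, the lowest at -0.19 (-0.35 to -0.02, limma adjusted p = 0.438). Of the 12 SM proteins and other syntaxin binders, which hold or hand over syntaxin, none had an unadjusted p under 0.05 over both treatments. Their values ran from -0.10 in Stxbp5l, the tomosyn relative, to 0.07 in Stxbp6, amisyn.

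The priming and active zone genes, which dock vesicles and make them ready for release, had mostly negative values in vehicle-treated CD mice. Of these 24 genes, 22 had a negative log2 fold change in VEH-CD against VEH-WT, with a median of -0.11 beside -0.0028 for all genes. In 10 of the 24 the VEH-CD mice lay below the VEH-WT mice without overlap, beside 11.4% of all genes. None was called, and in VERCUR-CD against VERCUR-WT 14 had a positive and 10 a negative value, with a median of 0.02. Mostly negative values in vehicle-treated CD mice were also found for the presynaptic calcium channel subunits, given below. Rims4, a small member of the RIM scaffold family, had the smallest adjusted p of all the lists in VEH-CD against VEH-WT and over both treatments. Its level there was 82.8% and 88.0% of wild type, inside the fold limits of a call. Normalized counts of Rims4 were 7283, 7387 and 7751 in VEH-WT, 6065, 6298 and 6193 in VEH-CD, 6425, 7045 and 6550 in VERCUR-WT, and 6093, 6249 and 6369 in VERCUR-CD, so every CD mouse lay below every wild-type mouse. Such a split, lower in CD, was found for 1 of the 133 listed genes, beside 0.473% of all genes. Rims4 was also the lowest of its list over both treatments, so it was picked by its values. Its log2 fold change was -0.27 in VEH-CD against VEH-WT (-0.39 to -0.16, limma adjusted p = 0.057) and -0.18 over both treatments (-0.26 to -0.10, limma adjusted p = 0.064). The highest of the list over both treatments was Ppfia3, a liprin of the active zone, at 0.13 (0.04 to 0.22, limma adjusted p = 0.318).

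Among the 16 other calcium sensors and complexins tested, Syt2 was the lowest over both treatments at -0.14 (95% interval -0.35 to 0.06), and Syt10, a sensor of growth factor secretion, the highest at 0.11 (-0.64 to 0.86). Syt2 was at -0.46 in VEH-CD against VEH-WT (-0.74 to -0.17, limma adjusted p = 0.216) and at 0.17 in VERCUR-CD against VERCUR-WT (-0.12 to 0.46, limma adjusted p = 1.0). The interaction of Syt2 was 0.63 (0.22 to 1.03, unadjusted p = 0.00557, limma adjusted p = 0.816). Of the 10 presynaptic calcium channel subunits, which let in the calcium that synaptotagmins sense, none was called in any treatment comparison. Their median in VERCUR against VEH over both genotypes was 0.0068. In VEH-CD against VEH-WT, 9 of the 10 had a negative log2 fold change, with a median of -0.08 beside -0.0028 for all genes. There 4 of the 10 lay below VEH-WT without overlap, beside 11.4% of all genes. In VERCUR-CD against VERCUR-WT, 5 had a positive and 5 a negative value, with a median of 0.03. Over both treatments, Cacnb1 was the lowest of them in CD at -0.17 (-0.31 to -0.02, limma adjusted p = 0.431) and Cacna1e the highest at 0.03 (-0.14 to 0.20).

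Of the 14 synaptic vesicle proteins, Synpr, a vesicle protein of the synaptophysin family, was the highest over both treatments at 0.17 (95% interval 0.02 to 0.33, limma adjusted p = 0.452), and Sv2c, a vesicle glycoprotein, the lowest at -0.16 (-0.50 to 0.18). Of the 19 genes of vesicle retrieval, Bin1, amphiphysin-2, was the highest at 0.12 (0.0070 to 0.24, limma adjusted p = 0.486) and Cltc, the clathrin heavy chain, the lowest at -0.10 (-0.22 to 0.02).

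Of the 9 genes of SNARE disassembly and its chaperones, which take spent complexes apart, none was called, and the median log2 fold change over both treatments was -0.02. Napb, which encodes beta-SNAP, a brain relative of the ATPase adaptor alpha-SNAP, was the highest at 0.02 (95% interval -0.11 to 0.14, limma adjusted p = 0.967). Sncg, gamma-synuclein, was the lowest at -0.39 (-0.76 to -0.02, limma adjusted p = 0.494), with low levels throughout, from 33.3 to 76.0 normalized counts over the 12 mice.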

How the data were processed

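Cortical RNA of 12 mice had been sequenced, 3 in each group, and each mouse was assigned to its group by its label. Per the labels, the authors aligned reads to GRCm38 with STAR 2.5.3a after FastQC. The counting program, the annotation and the normalization are not given in the sources used here. The authors deposited normalized counts (reads divided by 1 factor per sample). Depth was taken from the step between low values, of which 100% in each mouse were whole multiples. The authors also deposited expression relative to VEH-WT for genes of their own choice, which was not used.

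limma 3.58.1, in R 4.3.3, was used on log2(normalized count + 1) of the 17111 genes, out of 17202, with a mean of at least 10. A single model of the 4 groups, with all 12 mice and an intensity trend, gave 7 comparisons. Tests are two-sided, with Benjamini-Hochberg adjustment, and the interaction was called by the adjusted p alone. The script was tested on simulated data. Replicates were separate samples in the labels, and p values measure the spread between them. Paralogue ratios were tested by exact permutation of genotype within treatment, or of treatment within genotype, and adjusted over the 4 tests given. Positions and exon lengths are from GENCODE M21, where 17181 genes were found, and promoters from RefSeq (GRCm38.p6). Named were the 7 genes, every listed gene called, the highest and lowest of each list over both treatments, the 5 genes most like Stx1a and its 2 nearest measured genes on each side. Other genes were named with their values known. Items withheld here are not reported, and the lists were counted without them. The members and lists were chosen with earlier results of these data known. Alternatives were other pseudocounts (0.1 and 5), filters, normalizations and call rules, no trend, a replicate block, leaving out each mouse, and fits of only the 6 mice compared. Same-numbered mice did not deviate together (correlations from -0.347 to 0.267).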

Additional observations from a re-analysis of the deposited data

Results flagged for a closer look

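Vamp1 was called in neither genotype comparison, but its log2 fold changes had opposite signs in them. The VEH-CD mice (5937 to 6948 normalized counts) lay below the VEH-WT mice (7116 to 8199). The VERCUR-CD mice (6867 to 7309) had a higher mean than the VERCUR-WT mice (5703 to 6942) but overlapped with them. The interaction was 0.36 on the log2 scale (95% interval 0.09 to 0.63, unadjusted p = 0.0123, limma adjusted p = 0.816), which did not pass the correction over all genes.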

How the results depend on the processing

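The call of Stx1a in the 3 genotype comparisons, and its absence for the other 6 genes and in the treatment comparisons, held under every alternative run. Leaving out each mouse in turn moved the log2 fold change of Stx1a between -0.97 and -0.91 in VEH-CD against VEH-WT, between -1.09 and -0.94 in VERCUR-CD against VERCUR-WT and between -1.01 and -0.94 over both treatments, and the other alternatives between -0.98 and -0.91, -1.05 and -1.02, and -1.01 and -0.96. Blocking on the replicate number, which did not pair the mice (4 of 18 same-numbered pairs had a correlation over 0.1, and 5 of 12 mice resembled their own number best), left Stx1a called at -0.93, -1.02 and -0.98 and the genes called at 40, 26 and 49. Leaving out 1 mouse moved the 44 genes called in VEH-CD against VEH-WT to 24 (without replicate 1 or 3 of VEH-CD, or replicate 2 of VEH-WT), 28 (without VEH-WT 3) or 71 (without VERCUR-CD 2). Keeping genes whose CV was below 20% in each group gave 81. The fit without the 4 mice with the highest striatal marker level, chosen after seeing the data, called 16 and, over both treatments, 29 genes, and for treatment 12 (CD), 16 (WT) and 29 (both genotypes), against 0 with all mice; for treatment, leaving out 1 mouse gave at most 2, 3 and 2. A planned count model on reads recovered from the steps was not run.

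Signs changed only for small differences that were not called; the cause was not tested. Under quantile normalization, Snap25 was at -0.11 in VERCUR-CD against VERCUR-WT, -0.235 in VERCUR-CD against VEH-CD and -0.0258 in the interaction, Vamp2 at 0.0070 and Cplx2 at -0.020 in VERCUR-WT against VEH-WT and Syt1 at -0.00567 for treatment over both genotypes. Without the 4 mice of highest striatal marker level, VERCUR-CD against VERCUR-WT gave 0.0326 for Cplx2, CD against WT over both treatments gave 0.013 for Snap25 and 0.0476 for Syt1, VERCUR-CD against VEH-CD gave 0.0209 for Vamp2, 0.00374 for Cplx1 and 0.0396 for Cplx2, VERCUR-WT against VEH-WT gave 0.0131 for Vamp2 and 0.0232 for Syt1, VERCUR against VEH over both genotypes gave 0.000346 for Stx1a, 0.017 for Vamp2 and 0.0248 for Cplx2, and the interaction gave 0.00775 for Vamp2 and 0.0297 for Cplx2. Leaving out each mouse in turn also changed signs. In VEH-CD against VEH-WT, Cplx2 ran from -0.0229 to 0.0901. In VERCUR-CD against VERCUR-WT, Syt1 ran from -0.0466 to 0.144 and Cplx2 from -0.0481 to 0.0304. Over both treatments, Snap25 ran from -0.0313 to 0.0109, Syt1 from -0.0465 to 0.0487 and Cplx2 from -0.0118 to 0.0447. In VERCUR-CD against VEH-CD, Snap25 ran from -0.0213 to 0.0631, Vamp2 from -0.0358 to 0.012, Syt1 from -0.0212 to 0.169, Cplx1 from -0.0868 to 0.0126 and Cplx2 from -0.0904 to 0.0226. In VERCUR-WT against VEH-WT, Stx1a ran from -0.0494 to 0.0717, Vamp2 from -0.0318 to 0.0218, Syt1 from -0.0549 to 0.021 and Cplx2 from -0.0473 to 0.0478. For treatment over both genotypes, Stx1a ran from -0.0528 to 0.0139, Vamp2 from -0.0211 to 0.00569, Syt1 from -0.0211 to 0.0741 and Cplx2 from -0.045 to 0.0115. In the interaction, Vamp2 ran from -0.0322 to 0.0213, Syt1 from -0.000255 to 0.19 and Cplx2 from -0.0908 to 0.0221. The genotype difference of the log2 ratio of Vamp1 to Vamp2 ran from -0.0786 to 0.0062. The genotype difference of the log2 ratio of Cplx1 to Cplx2 ran from -0.2367 to -0.1963 and missed the threshold only without VERCUR-WT 3.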
